A study of Mus musculus with 19 samples.

Results

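The transcript levels of 8 genes that mark tissue macrophages were examined in the epithelial and mesenchymal compartments of the embryonic urogenital sinus and of the skin. The genes were Mrc1, Csf1r, Cx3cr1, C1qa, C1qb, C1qc, Cd14 and Aif1, chosen by name, and every probe set annotated with one of these symbols alone was taken. They comprise 8 of 17360 genes and 13 of 41549 probe sets tested, and all 13 passed the filter on low values. The 19 samples were urogenital sinus epithelium (UGE, n = 6), urogenital sinus mesenchyme (UGM, n = 5), back skin epidermis (n = 4) and back skin dermis (n = 4), all from untreated C57BL/6 embryos of embryonic day 16. The study separated UGE and UGM with trypsin, whereas epidermis was lifted from dermis after an overnight incubation with Dispase. Each sample pooled tissue of several embryos, and skin and urogenital sinus came from the same embryos, so that pools of different groups may share animals.

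Macrophages enter embryonic tissues from the yolk sac and the fetal liver and settle in the connective tissue that surrounds epithelia, where they clear dying cells. In the skin a subset colonises the epidermis and gives rise to Langerhans cells. Csf1r is the receptor for the growth factors Csf1 and Il34, on which most macrophages depend. Cx3cr1 is the receptor for the chemokine Cx3cl1 (fractalkine), Mrc1 (CD206) is the mannose receptor, an endocytic lectin, and Cd14 is a co-receptor that presents lipopolysaccharide to Toll-like receptors. C1qa, C1qb and C1qc encode the chains of C1q, the recognition molecule of the classical complement pathway, and Aif1 (Iba1) encodes an actin-binding protein of macrophages and microglia.

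Many macrophage genes are bound near their start by the transcription factor PU.1, encoded by Spi1, whose core site is the PU box GAGGAA. Promoters (RefSeq, GRCm38.p6, 250 bases before to 50 bases after the start taken for the promoter) were at hand for 5 of the 8 genes. For C1qc and Aif1 this start lay inside the gene as annotated, and positions below are counted from it. The promoters of Mrc1, C1qb and C1qc are shown because these genes differed most between epidermis and dermis among the 5, with the PU box, read as GAGGAA or on the other strand as TTCCTC, in capitals. The Mrc1 promoter lies on the plus strand at chr2:14229164-14229463, and those of C1qb and C1qc on the minus strand at chr4:136886151-136886450 and chr4:136892865-136893164.
Mrc1: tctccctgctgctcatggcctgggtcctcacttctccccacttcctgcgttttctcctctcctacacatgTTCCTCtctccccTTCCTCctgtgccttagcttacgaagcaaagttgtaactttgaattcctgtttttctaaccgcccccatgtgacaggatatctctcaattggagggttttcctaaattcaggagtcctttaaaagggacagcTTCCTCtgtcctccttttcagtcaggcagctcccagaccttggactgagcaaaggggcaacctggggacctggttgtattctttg
C1qb: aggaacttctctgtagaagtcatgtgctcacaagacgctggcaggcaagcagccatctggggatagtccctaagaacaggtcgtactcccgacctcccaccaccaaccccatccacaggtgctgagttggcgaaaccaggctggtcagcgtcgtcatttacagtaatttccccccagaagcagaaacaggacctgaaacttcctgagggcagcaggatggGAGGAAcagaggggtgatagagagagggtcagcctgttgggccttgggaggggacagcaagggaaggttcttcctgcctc
C1qc: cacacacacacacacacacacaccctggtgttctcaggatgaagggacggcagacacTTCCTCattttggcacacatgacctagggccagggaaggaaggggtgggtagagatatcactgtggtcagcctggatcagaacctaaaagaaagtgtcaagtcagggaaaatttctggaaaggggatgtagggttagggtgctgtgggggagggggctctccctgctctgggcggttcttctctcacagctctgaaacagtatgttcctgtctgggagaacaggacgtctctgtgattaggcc
The Mrc1 window held 3 such boxes, at positions -180, -167 and -35 from the start. C1qb held 1 at -30, C1qc 1 at -193 and Aif1 1 at -7, while the letters were not in the window of Cx3cr1. The 6 letters thus occurred in 4 of 5 windows of these genes and in 28.3% of all 32851 promoters of this length, which is a description of the sequences and not of binding. The genes C1qb, C1qc and C1qa follow each other on chromosome 4 between 136880126 and 136898844.

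Values are log2 intensities of one probe set, and a probe set was called changed at a Benjamini-Hochberg adjusted p below 0.01 over all 41549 tested probe sets together with a difference above 2-fold (limma). Levels are compared between tissues for one probe set and never between genes. The lower quartile of all probe sets lay between 4.70 and 4.92 on the different arrays. In these bulk samples fewer macrophages, less RNA per macrophage and transcript from other cells cannot be told apart. Replicates correlated at 0.954 to 0.997 within their groups. The epithelial and mesenchymal markers sorted the arrays as labelled: the mean of 11 epithelial genes was 12.38 to 12.55 in UGE against 6.92 to 8.46 in UGM, and 11.01 to 11.50 in epidermis against 8.81 to 10.01 in dermis. The mean of 10 mesenchymal genes was 6.70 to 9.83 in UGE against 12.27 to 12.39 in UGM, and 9.44 to 10.85 in epidermis against 12.72 to 13.18 in dermis. The mesenchymal mean was uneven within UGE, with 9.83 and 9.81 in replicates 2 and 3, 8.56 in replicate 1 and 6.70 to 6.91 in replicates 4, 5 and 6.

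Mrc1 (probe set 1450430_at) was 5.44 at the lowest, 5.95 at the median and 6.52 at the highest in UGE, against 8.93, 8.91, 8.16, 8.13 and 8.32 in UGM. Every UGE sample was below every UGM sample, and the transcript level was 5.58-fold lower in UGE (log2 fold change -2.48 ± 0.21 SE, limma adjusted p = 1.5e-06). In the skin it was 7.97, 8.02, 8.26 and 7.16 in epidermis, against 11.40, 11.78, 11.94 and 11.83 in dermis, 14.8-fold lower in epidermis (-3.89 ± 0.22, limma adjusted p = 3.9e-06). Mrc1 therefore stood highest in dermis and lowest in UGE, and UGM and epidermis, in between, overlapped.

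Csf1r (1419872_at) was 7.99 at the lowest, 8.68 at the median and 9.71 at the highest in UGE, against 10.53, 10.80, 10.53, 10.66 and 10.95 in UGM. In the skin it was 9.80, 8.71, 8.88 and 8.36 in epidermis, against 11.79, 11.90, 11.80 and 11.71 in dermis. Neither pair of groups overlapped, and the level was 3.5-fold lower in UGE than in UGM (-1.81 ± 0.28, limma adjusted p = 0.00027) and 7.28-fold lower in epidermis than in dermis (-2.86 ± 0.26, limma adjusted p = 2.8e-05). UGE and epidermis overlapped. The other probe sets of Csf1r moved less. 1419873_s_at differed by -1.07 in the urogenital sinus and by -1.53 in the skin, both called. 1423593_a_at differed by -0.56 in the urogenital sinus, which was not called (limma adjusted p = 0.014), and by -1.33 in the skin, which was.

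Cx3cr1 (1450020_at) was 5.58 at the lowest, 6.43 at the median and 6.90 at the highest in UGE, against 7.58, 7.38, 7.03, 7.30 and 7.58 in UGM. The groups did not overlap, but the difference was close to the 2-fold limit (-1.01 ± 0.23, limma adjusted p = 0.0039) and the call was lost under 11 of 23 alternative settings. In the skin Cx3cr1 was 7.04, 6.94, 7.07 and 6.56 in epidermis, against 8.54, 8.73, 8.88 and 8.77 in dermis, 3.55-fold lower in epidermis (-1.83 ± 0.14, limma adjusted p = 1.1e-05). Its second probe set, 1450019_at, stayed between 4.33 and 5.14 in all 19 samples, near the lower quartile of the arrays, and was called in no comparison.

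**Figure D1:**
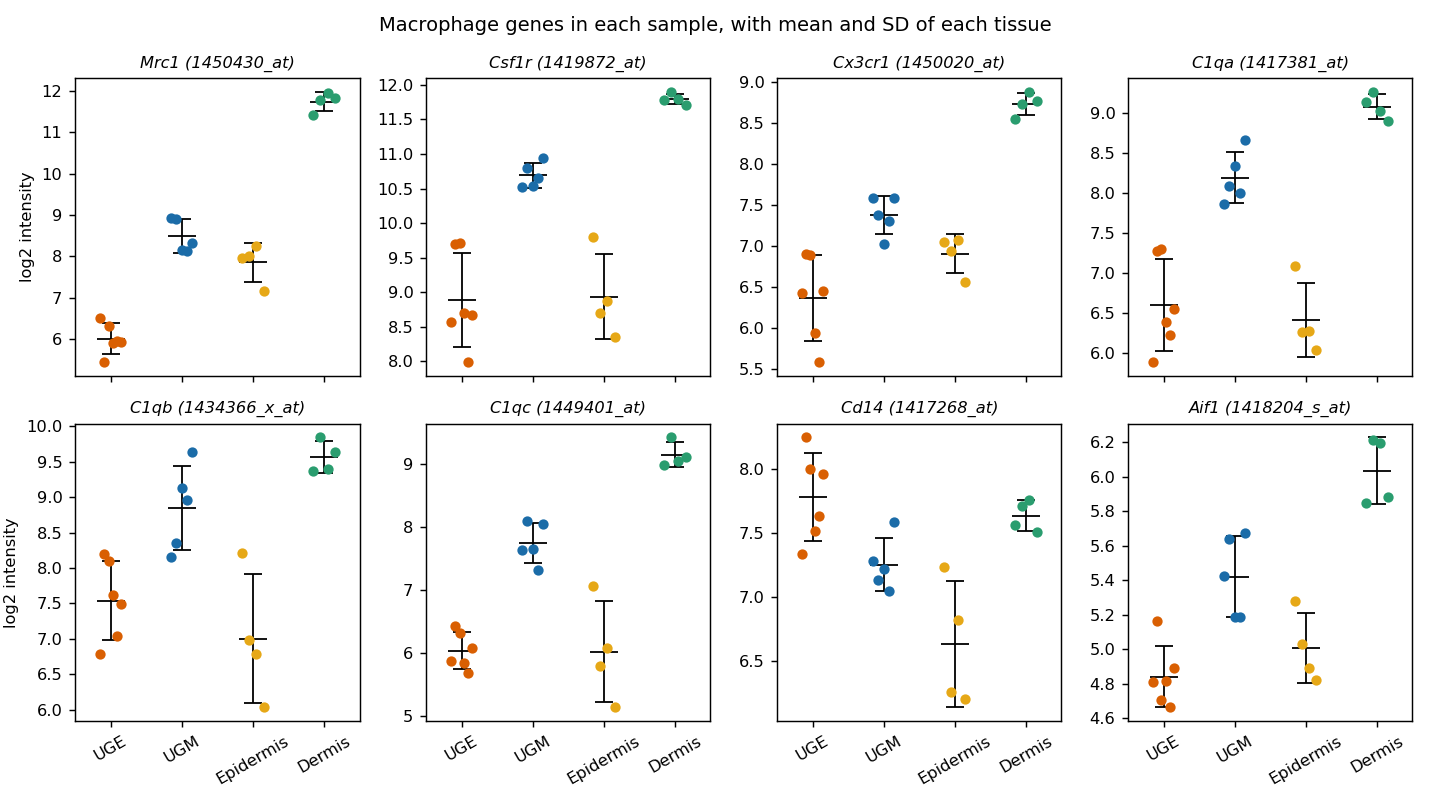
Log2 intensity (y axis) of the 8 macrophage genes in each sample of UGE, UGM, epidermis and dermis (x axis), each gene by its brightest tested probe set, with the mean and SD of each tissue (n = 6, 5, 4 and 4). Dermis has the highest mean for 7 of the genes, although for C1qb UGM (8.16 to 9.63) overlaps dermis (9.37 to 9.85). For Cd14 the mean is highest in UGE (7.34 to 8.25), which overlaps dermis (7.51 to 7.76).

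All 3 chains of C1q were called lower in the epithelium of both sites. C1qa (1417381_at) was 5.89 at the lowest, 6.47 at the median and 7.30 at the highest in UGE, against 7.86, 8.08, 8.34, 8.0 and 8.67 in UGM, 2.99-fold lower in UGE (-1.58 ± 0.26, limma adjusted p = 0.00039). In the skin it was 7.09, 6.27, 6.28 and 6.05 in epidermis, against 9.14, 9.26, 9.02 and 8.90 in dermis, 6.31-fold lower in epidermis (-2.66 ± 0.21, limma adjusted p = 1.3e-05). The groups of neither site overlapped.

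C1qc (1449401_at) was 5.68 at the lowest, 5.97 at the median and 6.43 at the highest in UGE, against 7.63, 8.10, 7.65, 7.32 and 8.04 in UGM (-1.71 ± 0.17, limma adjusted p = 6.2e-06). In epidermis it was 7.07, 5.79, 6.08 and 5.13, against 8.98, 9.43, 9.05 and 9.12 in dermis (-3.13 ± 0.33, limma adjusted p = 8.0e-05). C1qc was thus 3.28-fold lower in UGE and 8.74-fold lower in epidermis than in the mesenchyme of the same site, again without overlap.

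C1qb (1434366_x_at) was 6.79 at the lowest, 7.56 at the median and 8.20 at the highest in UGE, against 8.16, 8.35, 9.13, 8.96 and 9.63 in UGM. Here the groups overlapped slightly, with the highest UGE sample above the lowest UGM sample (-1.30 ± 0.31, limma adjusted p = 0.0055), and the call was lost under 9 of 23 alternatives. In the skin C1qb was 8.21, 6.99, 6.78 and 6.03 in epidermis, against 9.37, 9.85, 9.40 and 9.63 in dermis (-2.56 ± 0.37, limma adjusted p = 0.00052). The _x_ suffix marks probe sets that may also bind other transcripts, and the probe set of C1qb without a suffix, 1417063_at, gave larger differences, -1.84 ± 0.27 in the urogenital sinus (limma adjusted p = 0.00018) and -3.81 ± 0.36 in the skin (limma adjusted p = 3.6e-05). The third, 1437726_x_at, differed by -1.62 ± 0.44 in the urogenital sinus, which was not called (limma adjusted p = 0.012), and by -3.57 ± 0.51 in the skin (limma adjusted p = 0.00047).

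Aif1 (1418204_s_at) gave dim signals. It was 4.66 at the lowest, 4.81 at the median and 5.16 at the highest in UGE, against 5.42, 5.64, 5.18, 5.18 and 5.67 in UGM, so that most UGE samples lay in the range of the arrays' lower quartiles. The groups did not overlap, but the difference remained below 2-fold (-0.58 ± 0.12, limma adjusted p = 0.0027). In the skin Aif1 was 5.28, 5.03, 4.89 and 4.82 in epidermis, against 5.85, 6.21, 6.19 and 5.88 in dermis, 2.04-fold lower in epidermis (-1.03 ± 0.14, limma adjusted p = 0.00031), a call lost under 5 of 18 alternatives because the fold change fell below the limit.

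Cd14 (1417268_at) followed another order. It was 7.34 at the lowest, 7.80 at the median and 8.25 at the highest in UGE, against 7.28, 7.13, 7.22, 7.05 and 7.58 in UGM, the only gene of the 8 with a higher mean in UGE, by 0.53 ± 0.16 on the log2 scale, which was not called (limma adjusted p = 0.024). In the skin it was 7.24, 6.26, 6.83 and 6.21 in epidermis, against 7.56, 7.71, 7.76 and 7.51 in dermis, lower in all epidermis samples and at the 2-fold limit (-1.0 ± 0.21, limma adjusted p = 0.0048). This call was lost under 10 of 19 alternatives. By its means Cd14 was highest in UGE, then dermis, UGM and epidermis, and each neighbouring pair in this order overlapped.

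By gene, 6 of the 8 were called lower in UGE than in UGM, against 10.0% of all genes tested, and none higher, against 6.75%. In the skin all 8 were called lower in epidermis than in dermis, against 11.1% of all genes, where 5.84% were called higher. The median log2 fold change of the 8 was -1.44 in the urogenital sinus, beside 0.02 over all genes, and -2.61 in the skin, beside 0.01. Leaving out UGE replicates 2 and 3, in which Csf1r (9.69 and 9.71) and C1qa (7.28 and 7.30) were the highest of UGE, kept all 6 calls: Csf1r then differed by -2.21 and C1qa by -1.92. Epidermis replicate 1 held the highest epidermal values of Csf1r, C1qa, C1qb, C1qc, Cd14 and Aif1, and without it all 8 calls of the skin were kept, with Csf1r at -3.15 and C1qc at -3.48. With each replicate left out in turn, 4 to 6 genes remained called in the urogenital sinus and 6 to 8 in the skin. The genes that dropped out were Cx3cr1 and C1qb in the urogenital sinus and Cd14 and Aif1 in the skin.

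**Figure D2:**
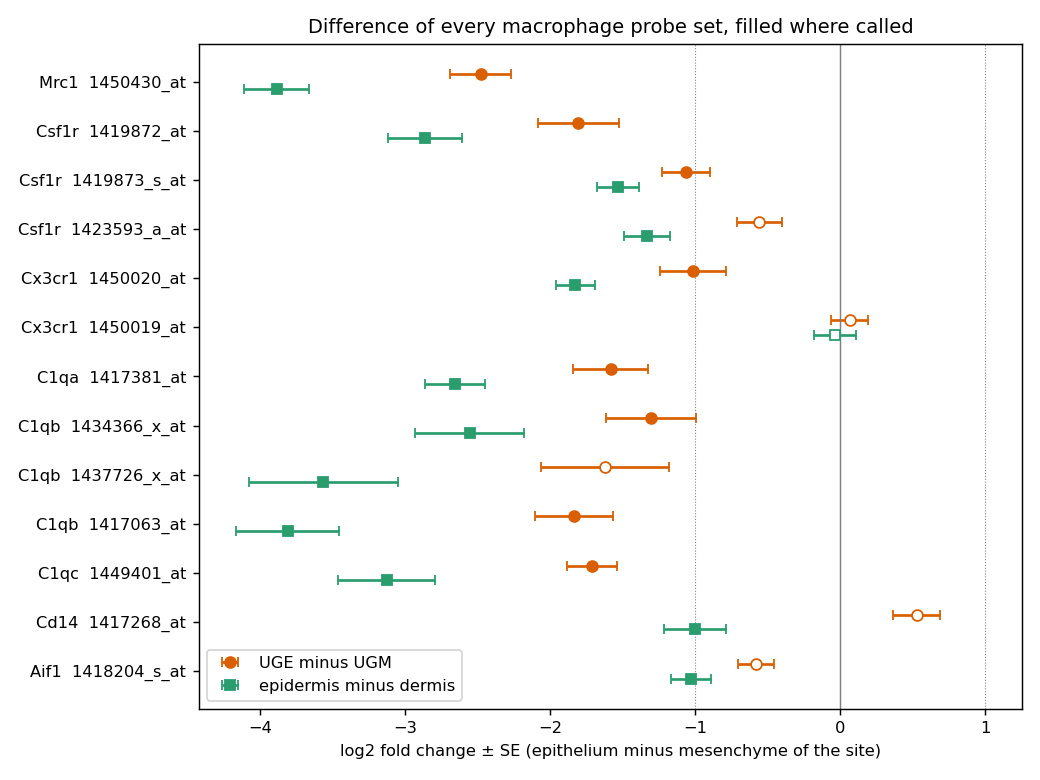
Log2 fold change with SE (x axis) of all 13 probe sets of the 8 genes (y axis) for UGE minus UGM (circles) and epidermis minus dermis (squares), filled where called. Dotted lines mark 2-fold. Mrc1 reaches -2.48 and -3.89, the probe set 1450019_at of Cx3cr1 stays at 0.07 and -0.03, and Cd14 lies on either side of 0, at 0.53 and -1.0.

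The size of the compartment difference was compared between the sites as (UGE minus UGM) minus (epidermis minus dermis). Here the organ, the enzyme used to separate the layers and how cleanly the layers parted cannot be told apart. The value was positive for all 8 genes, with a median of 1.16 beside 0.04 over all genes. Of the 8, 2 were called with a positive value, against 7.53% of all genes. None was called with a negative value, where 940 of 17360 genes were. For Mrc1 the difference was 1.41 ± 0.33 smaller in the urogenital sinus (limma adjusted p = 0.0043). With the replicate number as a block within both sites it was not called (1.42, limma adjusted p = 0.013), which left 1 of the 8 genes called. By these numbers the skin samples paired and the urogenital samples did not. For Cd14 the 2 sites differed by 1.53 ± 0.28 (limma adjusted p = 0.00046), with UGE above UGM and epidermis below dermis. C1qc gave 1.41 ± 0.38 (limma adjusted p = 0.011), C1qa 1.08 ± 0.37 (limma adjusted p = 0.049) and Csf1r 1.06 ± 0.42 (limma adjusted p = 0.093), none of them called, and Aif1, with 0.45 ± 0.19, was the smallest. For C1qb the probe set 1417063_at was called (1.97 ± 0.47, limma adjusted p = 0.0051), whereas the brighter 1434366_x_at was not (1.25 ± 0.52, limma adjusted p = 0.11). The call of Mrc1 was lost without epidermis replicate 4 (1.18, limma adjusted p = 0.010), dermis replicate 3 (1.34, limma adjusted p = 0.012) or dermis replicate 4 (1.38, limma adjusted p = 0.010), and C1qc was called without epidermis replicate 1 (1.76, limma adjusted p = 0.0002).

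Between the mesenchymes, 4 of the 8 genes were called lower in UGM than in dermis, against 7.00% of all genes, and none higher, against 6.77%. Mrc1 was 9.51-fold lower in UGM (-3.25 ± 0.24, limma adjusted p = 3.1e-09), and C1qc, Cx3cr1 and Csf1r differed by -1.40 ± 0.27, -1.35 ± 0.22 and -1.11 ± 0.30. The call of Csf1r was lost under 11 of 31 alternatives, among them leaving out any one dermis sample or UGM replicate 1, 2, 3 or 4, with adjusted p up to 0.021 (limma) in these fits. Its probe set 1419873_s_at was also called (-1.02 ± 0.17, limma adjusted p = 0.00011), whereas 1423593_a_at stayed below 2-fold (-0.92 ± 0.17). Aif1 (-0.61 ± 0.14), C1qa (-0.89 ± 0.27), C1qb (-0.72 ± 0.37) and Cd14 (-0.38 ± 0.20) were not called, although the C1qb probe set 1417063_at was (-1.79 ± 0.34, limma adjusted p = 0.00039).

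Between the epithelia 2 of the 8 genes were called. Mrc1 was 3.59-fold lower in UGE than in epidermis (-1.84 ± 0.23, limma adjusted p = 3.2e-06), 1 of 8 genes lower against 6.12% of all genes. For Cd14 UGE was 2.22-fold above epidermis (1.15 ± 0.19, limma adjusted p = 0.0001), 1 of 8 higher against 8.28% of all genes. Without UGE replicates 2 and 3, which had the highest Cd14 values of UGE, Cd14 remained higher at 0.98 but below 2-fold. Csf1r (-0.05 ± 0.29), C1qa (0.19 ± 0.26), C1qb (0.54 ± 0.36), C1qc (0.01 ± 0.26), Cx3cr1 (-0.54 ± 0.21) and Aif1 (-0.17 ± 0.13) were not called. In both comparisons between the sites the organ and the enzyme used to separate the layers cannot be told apart.

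The 8 genes did not vary among themselves in the same way. Over the 19 samples, Csf1r, C1qa, C1qb, C1qc, Cx3cr1, Mrc1 and Aif1 correlated with the mean of the 8 at 0.90 to 0.99, and Cd14 at 0.30. Cd14 correlated with that mean at 0.94 within the 8 skin samples and at -0.43 within the 11 urogenital samples. These coefficients mainly carry the steps between tissues. When each gene was set against its own tissue mean, Cd14 correlated with C1qa at 0.83 and with C1qc at 0.81, and C1qa with C1qb at 0.88 and with Csf1r at 0.87, whereas Mrc1 correlated with the other 7 at -0.22 to 0.32. Replicates 2 and 3 of UGE and replicate 1 of epidermis, which were high together, carry part of this: over the other 16 samples Cd14 and C1qa correlated at 0.66, C1qa and Csf1r at 0.45 and C1qa and C1qb at 0.82, and Mrc1 correlated with the other 7 at -0.32 to 0.61, with C1qc and Cx3cr1 both at 0.61. Without these 3 samples the coefficients of Mrc1 with Csf1r, Cx3cr1, C1qc, Cd14 and Aif1 rose, whereas those with C1qa (-0.32) and C1qb (-0.23) became more negative. The coefficients were not tested.

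The 3 epithelial samples with the most macrophage transcript, UGE replicates 2 and 3 and epidermis replicate 1, also held more of some other transcripts. In dermis the lowest macrophage mean (9.08, replicate 1) and the highest (9.36, replicate 2) both stood beside an erythroid mean of 8.90. The mean of the 8 genes was 7.17 in UGE replicates 2 and 3 alike, where the rest of UGE had 6.35 to 6.75. The mesenchymal mean was 9.83 and 9.81 in these replicates, but UGE replicate 1, with 8.56, stood closer to them than its macrophage mean of 6.52. Blood endothelial markers moved likewise, with a mean of 6.15 and 6.01 in UGE replicates 2 and 3, against 5.50 to 5.67 in the others, and erythroid markers with 7.23 and 7.16 against 5.69 to 5.98. In epidermis replicate 1 the macrophage mean was 7.46, with 6.29 to 6.88 in the other 3, the erythroid mean 7.76 against 6.72 to 7.20 and the mast cell mean 7.60 against 6.46 to 7.16, while the mesenchymal mean of 10.77 was below that of replicate 3. The part of these other transcripts in the levels of the 8 genes was not tested.

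**Figure D3:**
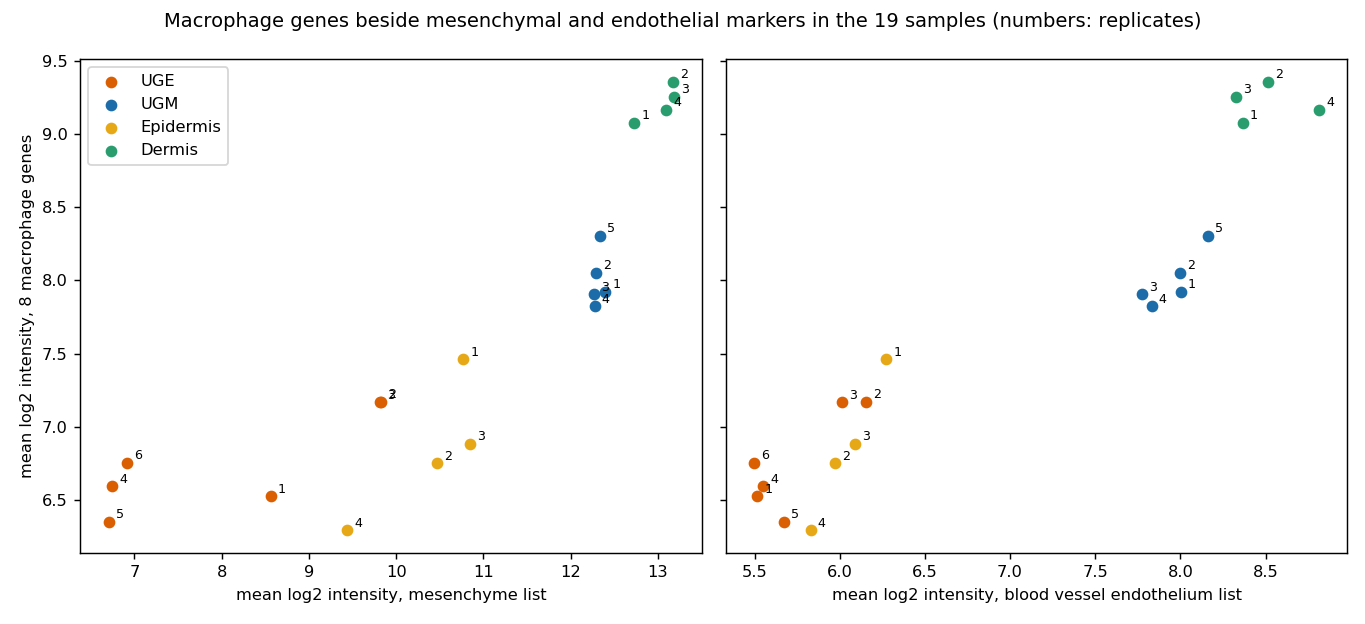
Mean log2 intensity of the 8 macrophage genes (y axis) against the mean of 10 mesenchymal markers (left, x axis) and of 10 blood vessel endothelial markers (right, x axis) in each of the 19 samples, coloured by tissue and numbered by replicate. UGE replicates 2 and 3, both at 7.17, and epidermis replicate 1, at 7.46, lie above the other samples of their tissues, and the 9 mesenchymal samples lie from 7.82 to 9.36.

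Other genes of macrophages gave the same direction with fewer calls in the urogenital sinus. Of 48 further macrophage genes measured, 12 were called lower in UGE than in UGM and none higher (median -0.42), and 31 were called lower in epidermis than in dermis and none higher (median -1.53). Over all genes 10.0% were lower and 6.75% higher in UGE, and 11.1% lower and 5.84% higher in epidermis. Shared by both sites were Pf4, a chemokine of macrophages and platelets (-2.55 ± 0.27 and -3.28 ± 0.32), Coro1a, an actin regulator of blood cells (-2.21 ± 0.35 and -3.31 ± 0.40), Lyz2, a lysozyme (-1.91 ± 0.23 and -2.79 ± 0.24), and Stab1, a scavenger receptor also found on sinusoidal and lymphatic endothelium (-1.90 ± 0.27 and -2.77 ± 0.14). Without UGE replicates 2 and 3, an alternative chosen after seeing the data for this list, 15 were called lower in UGE, the 12 among them, and without epidermis replicate 1 the same 31 were called lower in epidermis.

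Several macrophage genes were called in the skin alone. Tyrobp, the adaptor of activating myeloid receptors, was 7.51 ± 0.81 in epidermis and 10.39 ± 0.26 in dermis (SD, -2.88 ± 0.34 SE), but 7.00 ± 0.18 in UGE and 7.94 ± 0.24 in UGM (-0.94 ± 0.12). Cd163, the haemoglobin scavenger receptor, was also called, but this call was not independent of the filter on low values, which it passed through dermis alone. In epidermis (4.06 ± 0.22), UGE (3.80 ± 0.11) and UGM (3.81 ± 0.05) Cd163 lay below the lower quartile of every array. Csf2rb, a subunit of the receptor for Csf2, was 5.77 ± 0.92 in epidermis and 9.36 ± 0.22 in dermis, and 4.61 ± 0.33 in UGE, around the lower quartile, and 5.51 ± 0.08 in UGM. The compartment difference itself was larger in the skin by the interaction test for 16 of the 48 genes, among them Tyrobp (1.94 ± 0.36, limma adjusted p = 0.00048), Csf2rb (2.68 ± 0.40, limma adjusted p = 6.0e-05) and Cd53 (2.41 ± 0.25, limma adjusted p = 8.4e-07), against 7.53% of all genes. The 16 include Cd163, which passed the filter on low values through dermis alone, so that no size is given for it. Between the mesenchymes 24 of the 48 were called lower in UGM than in dermis (median -1.01) and 1, Cd83, an activation marker of dendritic cells and B cells, was called higher (2.07 ± 0.37). Over all genes 7.00% were lower and 6.77% higher in UGM. Between the epithelia 5 of the 48 were lower in UGE, against 6.12% of all genes, and 2, Irf8 and Ctss, were higher, against 8.28%.

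**Figure D4:**
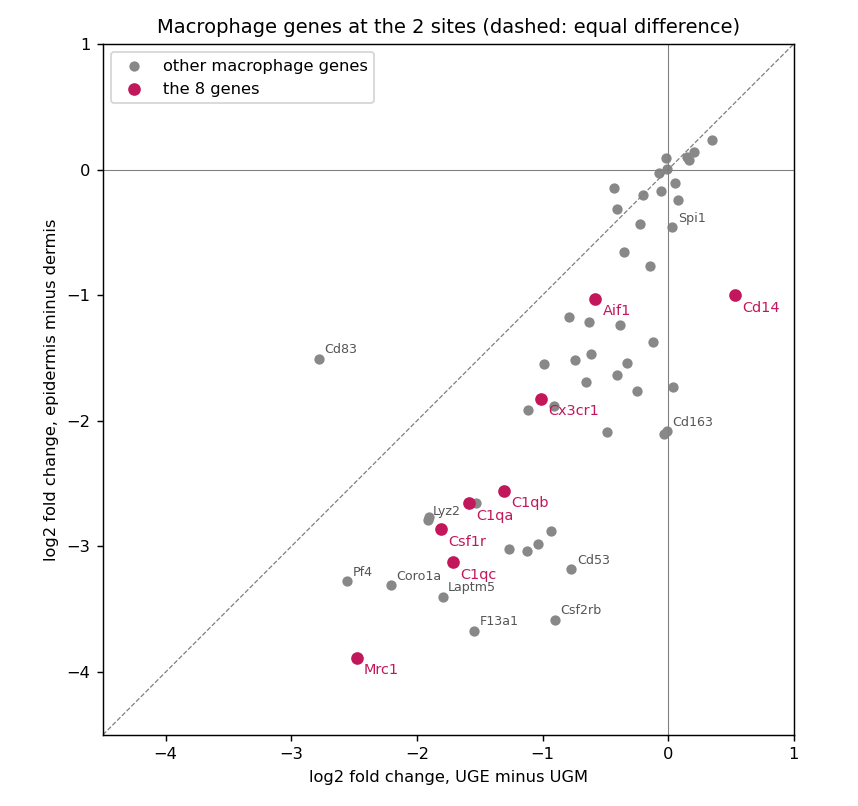
Log2 fold change of epidermis minus dermis (y axis) against that of UGE minus UGM (x axis) for the 8 genes and for 48 further macrophage genes, each by its brightest tested probe set. The dashed line marks equal differences. Most of the points with a difference lie below it, as Mrc1 does with -3.89 and -2.48, and Cd83 lies above it with -1.51 and -2.78.

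The ligands gave other patterns than their receptors. Csf1, the main growth factor of macrophages, was 7.54 ± 0.25 in UGE, 7.43 ± 0.15 in UGM, 7.48 ± 0.24 in epidermis and 7.63 ± 0.12 in dermis (SD), with differences of 0.11 ± 0.13 and -0.16 ± 0.13 SE that were not called. Il34, the second ligand of Csf1r and the one on which Langerhans cells depend, was 4.75 ± 0.30 in UGE and 4.58 ± 0.14 in UGM, around the lower quartile, and 5.81 ± 0.46 in epidermis and 5.44 ± 0.29 in dermis. It was lower in UGE than in epidermis (-1.06 ± 0.19, limma adjusted p = 0.00019). Cx3cl1, the ligand of Cx3cr1, was 9.09 ± 0.26 in UGE and 6.75 ± 0.25 in UGM, higher in UGE by 2.35 ± 0.15 (limma adjusted p = 8.3e-08), and 8.57 ± 0.26 in epidermis and 7.58 ± 0.37 in dermis, a difference of 0.99 ± 0.20 that stayed just under 2-fold. The differences of Cx3cl1 and Cx3cr1 had opposite signs at both sites.

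Of 13 genes for the ligands and signalling of Csf1r, 2 were called higher and 1 lower in UGE than in UGM, and 1 higher and 3 lower in epidermis than in dermis. Over all genes 6.75% were higher and 10.0% lower in UGE, and 5.84% higher and 11.1% lower in epidermis. Inpp5d, a lipid phosphatase of blood cells, was lower at both sites (-1.04 ± 0.17 and -2.49 ± 0.20). Runx1, a transcription factor of blood cells that is also active in epithelia, differed by 3.22 ± 0.18 in the urogenital sinus, higher in UGE, and by -1.82 ± 0.22 in the skin, and Cebpa, a factor of myeloid cells that is also found in epithelia, was higher at both (2.48 ± 0.13 and 1.80 ± 0.25). Spi1, which encodes PU.1, was 6.79 ± 0.23 in UGE and 6.76 ± 0.08 in UGM (SD, limma adjusted p = 0.85), and 7.05 ± 0.19 in epidermis and 7.51 ± 0.12 in dermis (SD, limma adjusted p = 0.015), and was not called.

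Among the complement genes that act with C1q, C1s1, the protease of the C1 complex, was 4.60 ± 0.30 in UGE, around the lower quartile, and 6.16 ± 0.50 in UGM (-1.56 ± 0.22), and 5.39 ± 0.29 in epidermis and 6.32 ± 0.10 in dermis (-0.93 ± 0.15, not called). Serping1, the inhibitor of that complex, was lower at both sites (-3.00 ± 0.39 and -2.92 ± 0.26), as was Cd93, once described as a C1q receptor and abundant in endothelium (-4.08 ± 0.44 and -3.81 ± 0.31). Masp1, a protease of the lectin pathway, differed by -3.20 ± 0.33 and -1.44 ± 0.15. In all, 4 of 19 complement genes were lower in UGE and 6 of 19 lower in epidermis than in the mesenchyme of the site, and none was higher. Over all genes 10.0% were lower in UGE and 11.1% lower in epidermis.

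The partners of Cd14 were mostly not called. Tlr4, the receptor for lipopolysaccharide, was 5.86 ± 0.17 in UGE and 5.70 ± 0.16 in UGM, and 5.86 ± 0.20 in epidermis and 6.28 ± 0.12 in dermis. Ly96, its co-receptor, was 6.98 ± 0.78 in UGE and 6.48 ± 0.11 in UGM, and 6.38 ± 0.18 in epidermis and 6.69 ± 0.16 in dermis. Tlr2, to which Cd14 also delivers ligands, had differences of the same signs as Cd14: 8.76 ± 0.22 in UGE and 7.95 ± 0.39 in UGM (0.80 ± 0.17), and 6.58 ± 0.12 in epidermis and 7.39 ± 0.13 in dermis (-0.81 ± 0.11), each below 2-fold, with a difference between the sites of 1.61 ± 0.22 (limma adjusted p = 2.6e-05). Lbp, which carries lipopolysaccharide to Cd14, was called lower in epidermis alone (-1.20 ± 0.16), and Ly86, a partner of another Toll-like receptor in B cells and macrophages, was lower at both sites (-1.5 ± 0.12 and -2.12 ± 0.23). Of the 18 genes of this group 2 were lower in UGE, a share near the 10.0% of all genes, and 5 were lower in epidermis, against 11.1%, and none was higher.

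Among 14 mannose and scavenger receptors related to Mrc1, 2 were lower in UGE, against 10.0% of all genes, and 8 lower in epidermis, against 11.1%. Mrc2, a collagen receptor of fibroblasts, was lower at both sites by a similar amount (-2.29 ± 0.31 and -2.31 ± 0.18), and Colec12, a scavenger receptor of endothelium, was lower in epidermis (-3.65 ± 0.27). Of 19 genes of phagosomes and lysosomes 3 were lower in UGE, against 10.0% of all genes, and 1 was higher, against 6.75%. The higher one was Gpnmb, a glycoprotein of macrophages and pigment cells (1.04 ± 0.19). In epidermis 8 of the 19 were lower, against 11.1%, among them Lyz1 (-2.64 ± 0.21 in UGE and -3.21 ± 0.45 in epidermis) and Lipa, the lysosomal acid lipase (-2.15 ± 0.17 in epidermis).

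Markers of blood vessels were mostly called lower in both epithelia, as most of the 8 genes were, and those of red cells in part. Markers of mast cells were mostly not called in the urogenital sinus, and those of dendritic cells mostly not at either site. The part of all these cell types in the differences of the 8 genes was not tested. The counts below stand beside 10.0% of all genes lower and 6.75% higher in UGE, and 11.1% lower in epidermis. Of 10 blood endothelial genes 9 were lower in UGE and all 10 lower in epidermis, with a median of -2.38 and -2.51. Of 8 erythroid genes 4 were lower in UGE and 5 lower in epidermis. Of 6 lymphatic endothelial genes 4 were lower in UGE and 1, Pdpn, a membrane glycoprotein that epithelia also make, was higher (1.10 ± 0.10), and all 6 were lower in epidermis. Of 11 mast cell genes 2 were lower in UGE (median 0.06) and 8 lower in epidermis (median -2.72), with Tpsb2, a mast cell tryptase (-3.58 ± 0.40), and Cma1, a chymase (-3.47 ± 0.43) among those lower in epidermis. Of the Langerhans and dendritic cell genes, 2 of 11 were lower in UGE and 3 of 11 lower in epidermis, and Cd207, the defining lectin of Langerhans cells, was 4.88 ± 0.21 in UGE, 4.85 ± 0.12 in UGM, 5.09 ± 0.11 in epidermis and 4.95 ± 0.02 in dermis, near the lower quartile throughout. The T cell gene Cd3e was 6.74 ± 0.06 in UGE, 6.74 ± 0.10 in UGM, 6.90 ± 0.13 in epidermis and 6.84 ± 0.07 in dermis. Of the defining macrophage markers, Adgre1 (F4/80) was lower in epidermis than in dermis (-1.55 ± 0.20) and stayed just under 2-fold in UGE (-0.99 ± 0.21), Cd68 was lower in epidermis (-2.09 ± 0.20), and Itgam was 3.84 to 4.18 in the means of the 4 tissues, below the lower quartile.

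The genes whose pattern over the 19 samples came closest to the mean of the 8 were Angptl4 (r = 0.991), Laptm5 (0.984), Glipr1 (0.984), Fcrls (0.983), Rflna (0.982), Gxylt2 (0.981), Slc39a13 (0.980), Coro1a (0.979), Pdia5 (0.979) and Gpx7 (0.978). Laptm5, a lysosomal protein of blood cells, was 7.98 in UGE, 9.78 in UGM, 8.29 in epidermis and 11.69 in dermis, and Fcrls, an Fc receptor-like protein of mouse macrophages and microglia, 7.27, 8.59, 7.27 and 9.55 in the same order. Within the 11 urogenital samples the closest were Stab1 (0.994), Kdelr3 (0.992), Tspan18 (0.991), Pdgfrl (0.991) and Copz2 (0.990), and within the 8 skin samples Igf2, Dpysl4, Nfatc4, Mfap4 and Mfap2, all at 0.999. Mfap2 and Mfap4 encode proteins of elastic microfibrils. Within a site the samples form a pair of groups, so that these coefficients mostly reflect the step between epithelium and mesenchyme, and they carry no test.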

How the data were processed

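Total RNA of 19 tissue samples was hybridised to MOE430 2.0 arrays. The deposited table holds 1 linear intensity per probe set and array, normalized between arrays by the authors. The methods mention GCOS 1.4 with scaling and, for further work, MAS5 calls (not used here) and PLIER levels; the algorithm behind the table is not given in the sources. The number of arrays limits the precision.

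Intensities were taken to log2 as deposited. The array holds 45101 probe sets, of which 64 are controls. Those with an intensity over 20 on any array, 41549 without the controls, entered limma 3.58.1 (R 4.3.3). UGE against UGM and epidermis against dermis were fitted on their own samples, and the other comparisons in 1 fit of the 4 groups. Adjusted p-values are Benjamini-Hochberg values over all tested probe sets. A gene is given by its brightest tested probe set with 1 symbol. The script was tested on simulated data. All 8 genes and their probe sets are named. From each list up to 6 called genes with the largest change, the partners of Csf1r, Cx3cr1, C1q and Cd14, and the 10, 5 and 5 genes most alike over all, urogenital and skin samples could be named; Tyrobp, Cd163, Spi1, Adgre1, Cd68, Itgam, Cd207 and Cd3e, and the genes that were the single exceptions of a count, were named outside this rule. The members and lists were chosen with earlier results of these data known. Replicate numbers of epidermis and dermis paired by their deviations from the group means (r 0.11 to 0.34 for the 4 pairs), with the origin of the numbers not stated; those of UGE and UGM did not (r -0.41 to 0.65). Promoters are RefSeq's for GRCm38.p6.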

Additional observations from a re-analysis of the deposited data

Results flagged for a closer look

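The compartment difference of 3 probe sets differed between the urogenital sinus and the skin by the test of the interaction (limma, adjusted over all tested probe sets). For Mrc1 (1450430_at) it was 1.41 (adjusted p = 0.0043), with UGE below UGM and epidermis further below dermis, a call lost with the replicate number as a block (1.42, adjusted p = 0.013). For C1qb (1417063_at) it was 1.97 (adjusted p = 0.0051) in the same sense. For Cd14 (1417268_at) it was 1.53 (adjusted p = 0.00046), with UGE above UGM and epidermis below dermis. For all 3 the organ and the enzyme used to separate the layers cannot be told apart. No sample stood apart from its group by Dixon's criterion in 52 checks of a probe set within a group. This criterion looks for a single sample and can miss samples that deviate together, as UGE replicates 2 and 3 did for Csf1r and C1qa.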

How the results depend on the processing

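No value of the 8 genes that was called changed sign under any alternative. The counts of called genes changed by over 1.5 times in these cases. Between UGE and epidermis 1 gene in place of 2 was called with the methods' t-test, with 50 added before log2 and with UGE replicates 2 and 3 left out, Cd14 being lost each time. For the difference between the sites, 4 genes in place of 2 were called at an adjusted p under 0.05. With single replicates left out, 4 to 6 genes were called between UGE and UGM, 6 to 8 between epidermis and dermis, 2 between UGE and epidermis, 3 to 5 between UGM and dermis and 1 to 3 for the difference between the sites.

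With the replicate number as a block, 4 genes were called between UGE and UGM (Cx3cr1, adjusted p = 0.023, and C1qb, adjusted p = 0.018, were lost), 8 between epidermis and dermis, 2 between UGE and epidermis, 3 between UGM and dermis (Csf1r, adjusted p = 0.028, was lost) and 1 for the difference between the sites (Mrc1, adjusted p = 0.013, was lost; limma in each case). Of the 48 further macrophage genes 10 and 31 were then called lower, and 15 for the difference between the sites. Of the same-numbered pairs, 1 of 5 of UGE and UGM and 3 of 4 of epidermis and dermis correlated best with their own number.

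The methods' t-test also lost Cx3cr1 and C1qb between UGE and UGM and C1qb and Cd14 between epidermis and dermis. Averaging the probe sets of a gene took Cx3cr1 below 2-fold in each comparison in which it was called (-0.47, -0.93 and -0.74), since its dim probe set did not move. Aif1, Il34, Cd163 and Cd207, and in UGE also Csf2rb and C1s1, lay close to or below the lower quartile of some arrays, and differences there are the least certain.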
